A study of Mus musculus with 10 samples.

Results

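A group of 39 genes was near silent in ATM-WT tumours and on in ATM-KO tumours. Members were the rows of the deposited table whose mean normalized count was at most 5 over the 5 ATM-WT libraries and at least 30 over the 5 ATM-KO libraries. Of the 23086 genes in the table, 46 met both limits, and 7 of these were left out by name (Rhox10, Ccl24, Sis, Vgf, Tmem74, the histone gene H2bc15 and Serpinb9e). The members were thus chosen by the mean levels of both genotypes in these same libraries, so every difference between ATM-WT and ATM-KO of a member is given below as a description, with no test. By function the 39 genes were 9 genes of nerve cells, 4 of the reproductive tract, 3 of secretion or metabolism, 3 regulators, 5 other coding genes, 2 immunoglobulin genes, 1 pseudogene, 11 long noncoding RNAs and 1 gene with no name.

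The tumours were grown in mice from BBN963, a mouse urothelial (bladder) carcinoma cell line named for the carcinogen BBN. The labels give 5 tumours of genotype ATM-WT and 5 of genotype ATM-KO, each taken once it measured 500 mm3, and RNA sequencing was made from the frozen part. The strain and age of the host mice, the lesion made in Atm and the number of knockout clones are not in the labels, which also do not say that each tumour came from its own mouse. Libraries are named by the numbers in the column headers, A1 to A5 for ATM-WT and A11 to A15 for ATM-KO, and values are normalized counts with SD over 5 libraries per group.

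Most genes that serve one tissue, such as those of synapses or of sperm development, are kept off in other cells, by the lack of the factors that drive them or by repressive chromatin and DNA methylation. Such genes are found switched on out of place in many tumours, and cancer-testis genes of the X chromosome are the best known example. ATM, the gene that separates the groups, encodes a kinase activated by broken DNA. The mean level of Atm messenger RNA was 485 ± 183 in ATM-WT libraries, with 455 ± 139 in ATM-KO libraries, and their ranges overlapped.

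How far down silence could be seen differed between the ATM-WT libraries. From the spacing of low values 1 read was worth 2.46 normalized counts in A2 and 0.762 to 1.02 in the other 9 libraries, so a value of 0 still allowed up to 7.37 normalized counts in A2 and 2.29 to 3.07 in the others (3 reads, counting error only). A rough depth from the same spacing was 8.84 M (mega) reads for A2 and 20.6 to 28.3 M for the others. The spacing rests on a low value held by only 5 genes in A4 and 8 in A2, against 15 to 62 in the others. The rough depth of A4, 25.4 M, is thus the least certain. A2 and A4 listed 4824 and 4266 genes of the whole table at 0, against 2225 to 3602 in the others. Of the 39 members, A1, A3 and A5 held 24, 18 and 23 above 0, while A2 held 5 and A4 held 8. All 5 ATM-KO libraries held 36 or 37 members above 0. Without A2 and A4 the rule took 40 genes, of which 32 were among the 39.

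**Figure D1:**
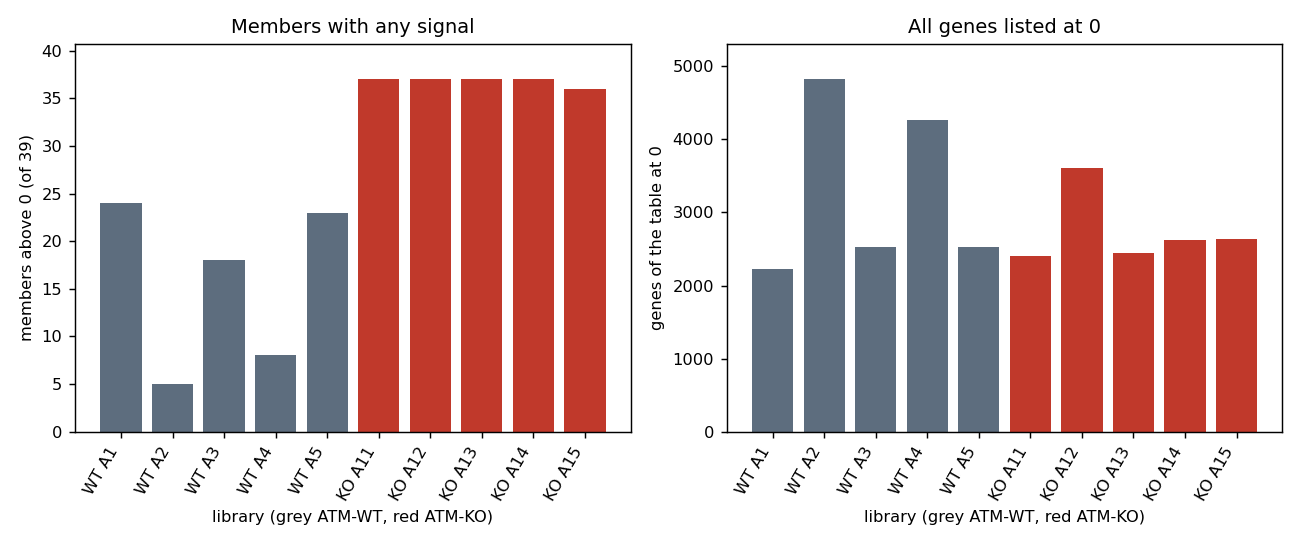
Left, the number of the 39 members above 0 in each library. Right, the number of all 23086 genes listed at 0 in each library, with ATM-WT libraries in grey and ATM-KO libraries in red. A2 and A4 hold the fewest members (5 and 8) and the most genes at 0 (4824 and 4266).

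The members were low in level as well as absent on one side. The median of their means was 1.87 in ATM-WT and 57.3 in ATM-KO. In ATM-KO 5 members averaged at least 100, among them Ighg2c, Nap1l2, 1700017M07Rik and Samt1b, and 16 averaged under 50. No member was above 0 in all ATM-WT libraries, 23 were at 0 in at least 3 of them and 6 were at 0 in all 5. In ATM-KO 35 members were above 0 in all 5 libraries, and 34 reached at least 10 in each. Summed over members, the ATM-WT libraries held 29.8 to 118 normalized counts, and the ATM-KO libraries 2041 to 2627 without the immunoglobulin genes. For 33 of the 39 members every ATM-KO library lay above every ATM-WT library, beside 17.0% of the 16517 genes tested. In limma on log2(value + 1), 34 members were called higher at an adjusted p under 0.05, beside 22.1% of all genes tested. Both counts follow from the rule and are read as nothing more. The 6 members whose groups overlapped were Ighg2c, Igkv12-41, Samt1b, Gm45837, Rpl7a-ps11 and 4930512J16Rik.

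**Figure D2:**
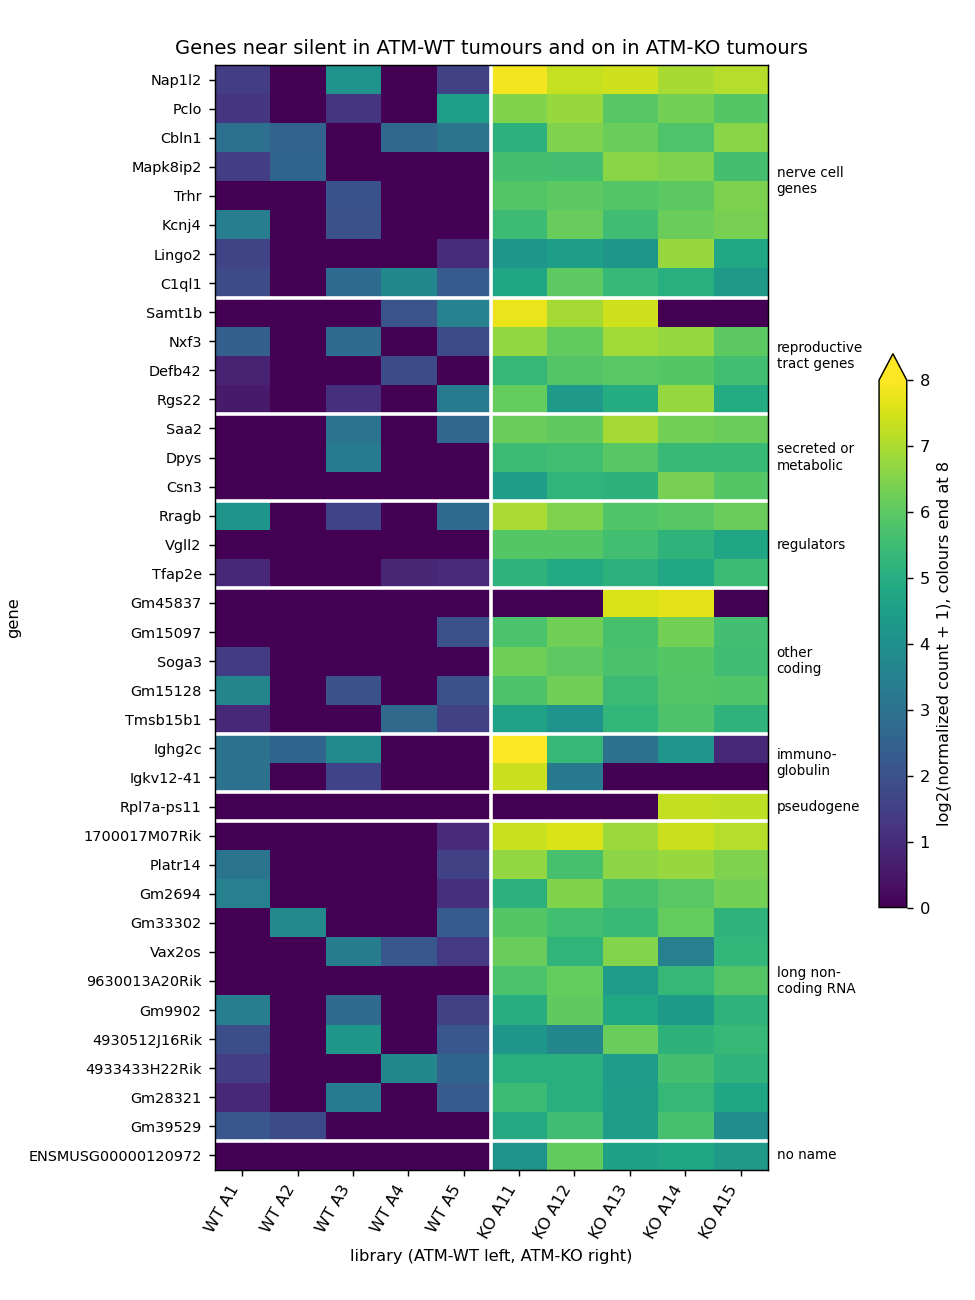
Each row is 1 of 38 members and each column 1 library (5 ATM-WT left, 5 ATM-KO right). Colour gives log2(normalized count + 1), and white lines separate the function groups. Samt1b, Gm45837, Rpl7a-ps11 and Igkv12-41 are at 0 in 2 or 3 ATM-KO libraries. The other rows are above 0 in all of them, at levels that differ between libraries more than the log colours show.

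The same rule turned around, near silent in ATM-KO and on in ATM-WT, took 464 genes. Over all genes, 4704 averaged at most 5 in ATM-WT, and 3898 of these did so in ATM-KO too. Just inside the ATM-WT limit stood C1ql1 at 4.99, Ighg2c at 4.98 and Rragb at 4.92, and just outside it Tmsb15l at 5.33, Ush1g at 5.50 and Xcr1 at 5.68. Just inside the ATM-KO limit stood ENSMUSG00000120972 at 30.1, Gm39529 at 31.9 and Gm28321 at 32.4, and just outside it 9330159F19Rik at 29.8, Cabp4 at 29.6 and Gm45924 at 29.3. Membership was thus set by small margins for some genes, and 25 of the 39 kept both limits when each library was left out in turn. By group medians in place of means 30 of the 39 met the limits.

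The 9 genes of nerve cells made the largest coding group. In all 9 the ATM-KO libraries lay above the ATM-WT libraries, beside 17.0% of all genes tested. The rule fixed this direction, so the count is no trait of nerve cell genes. The same held for all 3 regulators and 10 of the 11 noncoding members, but for 0 of the 2 immunoglobulin genes. Nap1l2, an intronless X-linked nucleosome assembly gene of neurons, held 1.76, 0, 15.9, 0 and 1.97 in A1 to A5 and 229, 155, 169, 124 and 137 in A11 to A15. Its single clear ATM-WT value was that of A3, and its means were 3.93 ± 6.77 and 163 ± 40.8. Its relative Nap1l3 was higher in ATM-KO too (20.5 ± 22.8 to 103 ± 13.3, limma adjusted p = 0.0074), while Nap1l5 averaged 3.34 and 2.14. Pclo, Cbln1 and C1ql1 serve the synapse itself. Pclo encodes Piccolo, a scaffold of the zone where vesicles are released, and held 1.40, 0, 1.35, 0 and 21.7 in ATM-WT and 88.6, 107, 59.7, 78.97 and 58.8 in ATM-KO. A5 stood apart among its ATM-WT libraries. Cbln1 encodes cerebellin, a secreted protein that bridges synaptic partners, and held 6.64, 4.89, 0, 5.37 and 7.43 and then 34.2, 86.6, 72.2, 54.2 and 95.3. It was above 0 in 4 of 5 ATM-WT libraries, more than most members. C1ql1, a secreted protein of the same C1q superfamily that acts on climbing fibre synapses, held 2.63, 0, 5.97, 12.4 and 3.93 and then 25.6, 63.8, 40.4, 31.3 and 18.7. Their near relatives were not among the members. Cbln2 averaged 24.8 ± 29.3 and 13.5 ± 6.92 (limma adjusted p = 0.94), and Cbln3 and C1ql3 averaged 3.99 and 3.27 in ATM-KO.

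Kcnj4, Trhr, Mapk8ip2 and Lingo2 also belong to the nerve cell genes. Kcnj4 encodes an inward rectifier potassium channel and held 9.66, 0, 2.98, 0 and 0 in ATM-WT and 43.95, 70.2, 45.7, 72.3 and 80.8 in ATM-KO. Trhr, the receptor for thyrotropin-releasing hormone, held 0, 0, 3.01, 0 and 0 and then 57.1, 62.9, 57.1, 61.8 and 84.7, so that ATM-WT signal came from A3 alone. Mapk8ip2, a scaffold of the JNK kinase pathway, held 1.76, 4.91, 0, 0 and 0 and then 49.1, 48.03, 94.6, 86.7 and 48.8. These 3 genes lie on chromosome 15. Lingo2, a neuronal membrane protein with leucine-rich repeats, held 2.11, 0, 0, 0 and 1.01 and then 17.7, 21.4, 17.9, 108 and 26.4. A14 alone gave 56.4% of its ATM-KO sum, and without A14 it no longer met the ATM-KO limit.

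Markers of neurons and glia went both ways. Of 11 marker genes 10 were in the table and 8 were tested, of which 2 were higher and 2 lower in ATM-KO. Their summed level ran from 1892 to 2983 in ATM-WT and from 5307 to 6626 in ATM-KO, and most of the ATM-KO sum was the tubulin gene Tubb3 at 4749 to 6053. Snap25, Gfap and Sox10 averaged under 5 in ATM-KO, and Snap25, a vesicle fusion gene of neurons, held 0, 0, 0, 0 and 1.83 there. In bulk tumour RNA, fewer cells of a type and less RNA per cell cannot be told apart.

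Among the 4 genes of the reproductive tract, Nxf3 and Defb42 were even across ATM-KO. Nxf3, an X-linked member of the nuclear RNA export factor family found in testis, held 4.49, 0, 5.93, 0 and 2.51 in ATM-WT and 103, 66.6, 118, 106 and 62.8 in ATM-KO. The broadly used export factor gene Nxf1 averaged 5090 ± 2108 and 3344 ± 703 and was not called (limma adjusted p = 0.2). Defb42, a beta-defensin of the male tract, held 0.687, 0, 0, 2.59 and 0 and then 39.3, 57.7, 61.2, 57.8 and 46.6. Rgs22, a regulator of G protein signalling found in testis, was uneven, with 0.493, 0, 1.12, 0 and 8.65 in ATM-WT and 67.7, 19.2, 29.7, 106 and 29.02 in ATM-KO. A14 and A11 carried most of its signal. Samt1b is taken up below with its copies. Germ cell markers were nearly absent, since 3 of 9 were in the table and 1 was tested. That marker, Tex101, a surface protein of male germ cells, was at 0 in ATM-WT and held 5.11, 7.39, 2.28, 90.1 and 13.4 in A11 to A15. Tex101, Lingo2 and Rgs22 all had their highest ATM-KO value in A14. Over all members A14 was the highest ATM-KO library for 12, and the other 4 for 4 to 8 each.

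The 3 genes of secretion or metabolism are used by breast and liver. Csn3 encodes kappa-casein, which keeps milk casein in suspension, and was at 0 in all ATM-WT libraries and at 21.5, 37.04, 34.8, 81.2 and 58.9 in ATM-KO. Saa2 encodes an acute-phase serum amyloid A protein made by the liver in inflammation, and held 0, 0, 7.31, 0 and 5.18 in ATM-WT and 71.9, 65.1, 119, 78.2 and 71.03 in ATM-KO. Its relatives behaved otherwise. Saa1 averaged 3.95 ± 5.92 and 5.79 ± 3.70, and Saa3, the form made by macrophages and fat, was lower in ATM-KO (555 ± 425 against 158 ± 132, limma adjusted p = 0.021). Saa2 shares 44.4% of its 31-base words with Saa1, so reads could be split between them. Dpys encodes dihydropyrimidinase, an enzyme of pyrimidine breakdown, and held 0, 0, 8.86, 0 and 0 in ATM-WT and 44.1, 46.9, 59.95, 41.98 and 40.7 in ATM-KO. Of 11 hepatocyte and yolk sac markers 8 were in the table and 6 were tested, with 2 higher and 3 lower. Their sum ran from 379 to 833 in ATM-WT and from 513 to 621 in ATM-KO. Ttr and Hnf4a were at 0 in all ATM-KO libraries, and Alb, Apoa1 and Cyp2e1 averaged under 5 there.

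The 3 regulators each had a relative that was not silent in ATM-WT. Vgll2, a cofactor of the TEAD transcription factors known from skeletal muscle, was at 0 in all ATM-WT libraries and at 58.2, 58.2, 46.5, 35.7 and 25.8 in ATM-KO. Vgll3 averaged 497 ± 223 and 426 ± 42.5 (limma adjusted p = 0.89), and Vgll4 was lower in ATM-KO at 544 ± 106 against 1400 ± 197 (limma adjusted p = 1.12e-05). Of 9 skeletal muscle markers, all tested, 0 were higher and 1 lower. Their sum was 2592 in A3, where Vgll2 was at 0, and 1492, 155, 414, 930 and 70.0 in A11 to A15. Tfap2e, a transcription factor of the AP-2 family, held 0.879, 0, 0, 0.829 and 0.984 and then 35.8, 27.7, 34.3, 26.8 and 43.6. Its relatives Tfap2a and Tfap2c, which serve epithelia, were lower in ATM-KO, Tfap2a at 464 ± 19.8 against 929 ± 419 (limma adjusted p = 0.026) and Tfap2c at 0.175 ± 0.391 against 210.5 ± 191 (limma adjusted p = 5.88e-06). Rragb, a Rag GTPase that brings mTORC1 to the lysosome when amino acids are present, held 16.7, 0, 2.02, 0 and 5.92 in ATM-WT and 126, 86.1, 55.4, 59.5 and 71.2 in ATM-KO. Its near twin Rraga averaged 1523 ± 203 in ATM-WT, against 1874 ± 127 in ATM-KO (log2 difference 0.31 ± 0.10 SE, limma adjusted p = 0.026). Rragb thus stayed far below Rraga in both groups, although normalized counts are not per length.

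The other coding genes were mostly members of X-linked families. Gm15097 and Gm15128 belong to the Ott family, repeated genes of the X chromosome named for their place in ovary and testis. Gm15097 held 0, 0, 0, 0 and 2.95 in ATM-WT and 52.1, 75.8, 49.5, 78.6 and 48.01 in ATM-KO, while Gm15128 held 11.4, 0, 2.98, 0 and 2.95 and then 53.2, 75.8, 44.2, 57.2 and 56. They share 93.7% and 94.5% of their 31-base words with other genes, so each value depends on how reads were split. Summed over the 8 family members in the table, the level was 4.41 ± 5.48 in ATM-WT and 159 ± 38.4 in ATM-KO. This sum still met both limits. Tmsb15b1, a thymosin of the actin-binding beta family, held 0.875, 0, 0, 5.74 and 1.95 and then 23.5, 15.8, 38.5, 53.5 and 35.7. Its overlapping neighbour Tmsb15l, with which it shares 65.8% of its 31-base words, just missed the ATM-WT limit, and the 3 genes of this locus summed to 7.39 ± 8.90 and 128 ± 37.4. Soga3 held 1.63, 0, 0, 0 and 0 and then 73.5, 63.3, 51.6, 58.8 and 46.03, one of the most even members.

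In 3 members outside the immunoglobulin genes the ATM-KO signal sat in some libraries only, and each shared most or all of its sequence with another gene in the table. Rpl7a-ps11, an X-linked processed copy of the ribosomal protein gene Rpl7a, held 0, 0, 0, 153 and 149.8 in A11 to A15 and 0 in all ATM-WT libraries. Gm8226, a copy on chromosome 9, held 76.3, 96.4, 124, 116 and 124 in ATM-WT and 105, 123, 144, 0 and 0 in ATM-KO. The GENCODE M21 transcripts of both are identical over 798 aligned bases (0 differences), as the first 81 of these show.
Rpl7a-ps11: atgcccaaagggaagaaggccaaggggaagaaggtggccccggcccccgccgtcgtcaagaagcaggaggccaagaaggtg
Gm8226: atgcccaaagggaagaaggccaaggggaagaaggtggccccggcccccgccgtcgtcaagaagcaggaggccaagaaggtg
No letter is in capitals because no base differs. The sum of both was 107 ± 20.6 in ATM-WT and 135 ± 20.2 in ATM-KO. Every library was well above 0. Rpl7a-ps11 thus met the rule through A14 and A15 alone, the libraries in which Gm8226 was at 0. It also shares 92.0% of its 31-base words with Rpl7a and 87.9% with Gm16477. Rpl7a itself was far higher, with group means of 17350 (ATM-WT) and 20370 (ATM-KO). Which of these genes gave the reads counted for Rpl7a-ps11 was not tested.

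Gm45837 gave the same picture with Pde2a, the gene of a cyclic nucleotide phosphodiesterase. Gm45837 is a model on the same strand that runs across Pde2a and shares 95.6% of its 31-base words with it. It held 0, 0, 185, 201 and 0 in A11 to A15 and 0 in all ATM-WT libraries, while Pde2a held 208, 132, 363, 261 and 213 in ATM-WT and 122, 162, 0, 37.8 and 186 in ATM-KO. Their sum was 235 ± 85.05 in ATM-WT and 179 ± 42.5 in ATM-KO, so the locus was on in both groups.

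Samt1b differed from these, because its copies Samt1 and Samt1c were low in ATM-WT too. They averaged 7.85 and 5.79 there, above the limit of 5. Samt1b belongs to a family of membrane proteins of spermatogenic cells, and all of its 31-base words recur in Samt1. Samt1b held 0, 0, 0, 3.16 and 10.7 in ATM-WT and 215, 120.2, 169, 0 and 0 in ATM-KO, while Samt1 held 0, 28.9, 7.35, 3.05 and 0 and then 0, 84.3, 0, 243 and 149. Where one was at 0 in ATM-KO the other was high. Their sum was 10.6 ± 10.9 in ATM-WT and 196 ± 37.2 in ATM-KO, with 215, 205, 169, 243 and 149 in A11 to A15. Samt1c, which is not a member, held 179.8, 240.3, 134, 159.7 and 134 in ATM-KO and 5.79 ± 9.51 on average in ATM-WT (limma adjusted p = 1.07e-04). The summed pair lay above every ATM-WT library in all 5 ATM-KO libraries but missed the ATM-WT limit of the rule.

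**Figure D3:**
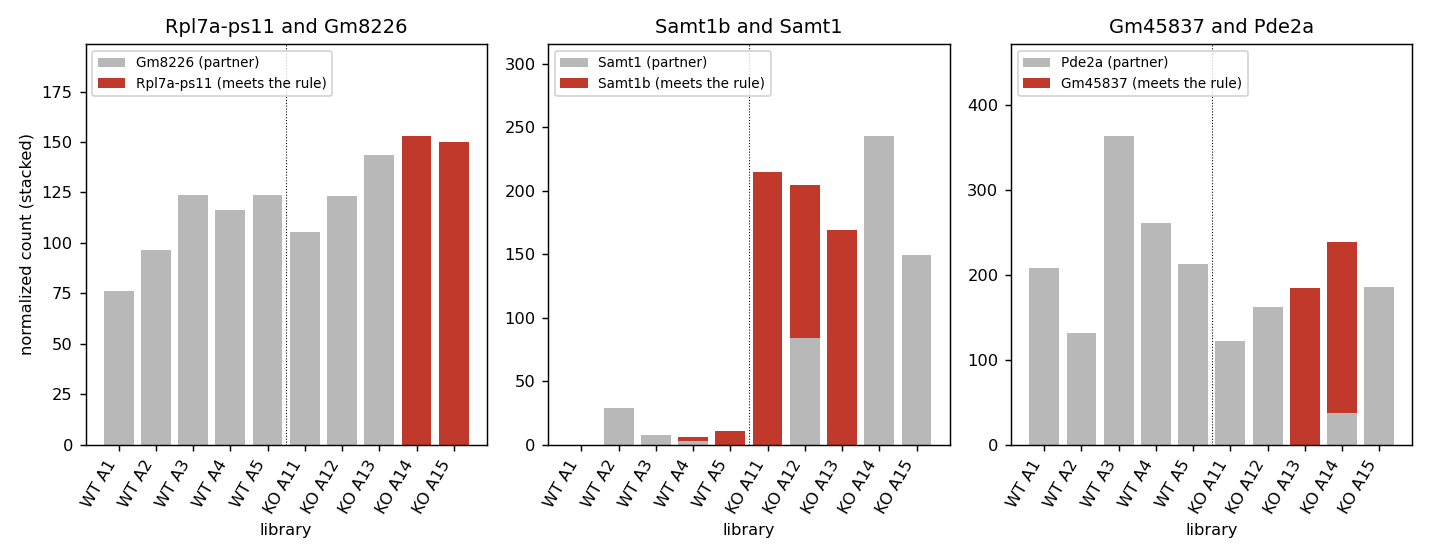
Stacked normalized counts in each library for 3 members (red) and a gene that shares nearly all of their sequence (grey). For Rpl7a-ps11 and Gm8226, and for Gm45837 and Pde2a, the stack is similar in both groups. For Samt1b and Samt1 it is 0 to 28.9 in ATM-WT and 149 to 243 in ATM-KO.

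In all, 34 members were found in GENCODE M21, of which 22 shared under 5% of their 31-base words with any other gene and 7 shared at least 50%. When each of the 7 members with a copy in the table sharing at least 40% was replaced by the sum over its copies, the Ott genes Gm15097 and Gm15128 kept the rule and Samt1b, Saa2, Gm45837, Rpl7a-ps11 and Tmsb15b1 did not. That left 34 of 39. For Samt1b, Saa2 and Tmsb15b1 the summed ATM-WT mean was 17.2, 6.45 and 7.39, still low, and the ATM-KO mean 436, 86.9 and 128.

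The 2 immunoglobulin genes rested on a single tumour. Ighg2c, the constant region of an IgG2 heavy chain, held 7.01, 4.92, 12.9, 0 and 0 in ATM-WT and 1422, 38.8, 6.84, 16.9 and 0.891 in ATM-KO, with 95.7% of the ATM-KO sum in A11. Igkv12-41, a variable segment of the kappa light chain, held 6.96, 0, 2.03, 0 and 0 and then 164, 8.36, 0, 0 and 0, with 95.2% in A11. Without A11 neither met the ATM-KO limit. Other antibody genes were also highest in A11. Igkc, the kappa constant region, held 42.9, 0, 622, 29.6 and 52.7 in ATM-WT and 2869, 162, 16.7, 58.8 and 80.6 in ATM-KO, while Jchain, the joining chain of secreted antibody, held 21.1, 17.3, 73.9, 4.15 and 25.6 and then 561, 48.4, 14.5, 10.7 and 19.6. The table had 24 variable segments of heavy and kappa chains, of which A11 held 24 above 0, A3 held 6 and the others 0 to 4. Many of these segments, such as Igkv3-4 at 94.1 and Ighv8-12 at 49.1, were above 0 in A11 alone. Their rows may be in the table only because of A11, so the count of 24 is read as nothing more. Ighg1, the IgG1 constant region, was highest in A3 at 802 and held 112 in A11.

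**Figure D4:**
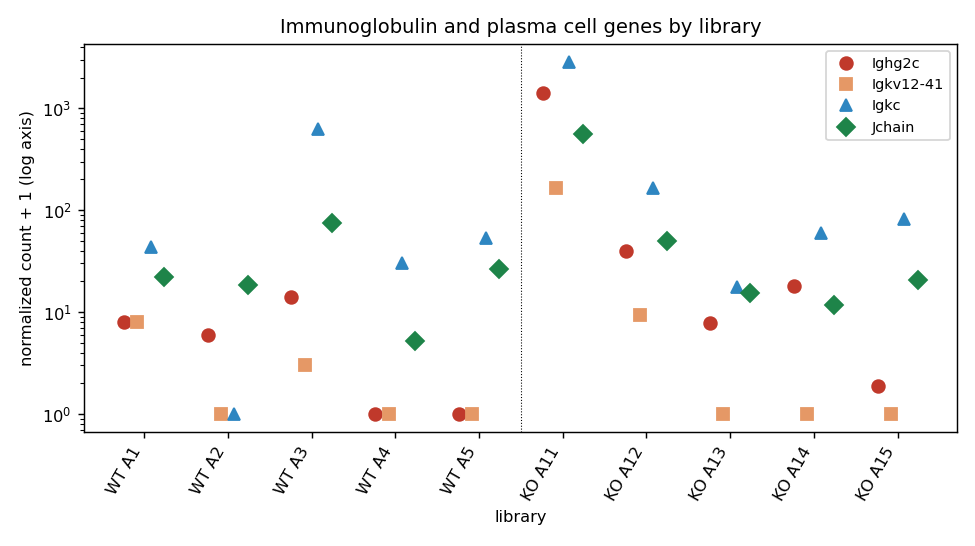
Normalized count + 1 on a log axis in each library for the members Ighg2c and Igkv12-41 and for Igkc and Jchain, set side by side within a library. A value of 0 is drawn at 1. A11 is the highest library for all 4 genes, at 1422, 164, 2869 and 561 normalized counts.

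Single B cell markers differed, Cd79a and Blk by genotype and Jchain by A11, rather than the markers as a set. All 9 were in the table and 4 were tested, with 2 higher (Cd79a and Blk, both of B cell receptor signalling) and 0 lower. Their sum was 55.5 to 173 in ATM-WT, 1073 in A11 and 458 to 636 in the other ATM-KO libraries. Cd79a held 219.7, 274, 221, 229 and 225 and Blk 234, 194, 185, 363 and 214 in A11 to A15, with no rise in A11, and Ms4a1, Fcer2a and Cr2 averaged under 5. Their part in the level of Ighg2c and Igkv12-41 was not tested.

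Long noncoding RNAs made 28.2% of the members, against 7.97% of the table and 2.44% of all genes called higher. Coding genes made 59.0% of the members, 70.4% of the table and 94.2% of all genes called higher. The limit of 5 in ATM-WT favours genes of low level, and its part in these shares was not tested. The highest was 1700017M07Rik, at 0, 0, 0, 0 and 0.981 in ATM-WT and 159.5, 186, 109.5, 164 and 136 in ATM-KO, with a lower spread than most members. Per kilobase of its longest transcript it averaged 161 normalized counts in ATM-KO, above Platr14 at 115 and Nap1l2 at 66.1 on the same scale. Pclo, whose transcript is 20084 bases long, averaged 3.92 per kilobase. Platr14, named as a transcript associated with pluripotency, held 7.36, 0, 0, 0 and 1.99 and then 103, 49.5, 96.05, 108 and 85.9. Its namesakes Platr3, Platr16 and Platr25 were not called (limma adjusted p = 0.36, 0.13 and 0.18). Platr5, too low to be tested, was at 0 in all ATM-WT libraries and held 12.5, 4.03, 16.9, 16.9 and 9.46 in ATM-KO.

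In 3 cases a noncoding member lies against a coding gene that was higher too. Gm2694 starts beside Cbln1 and overlaps it on the opposite strand in GENCODE M21, and held 10.2, 0, 0, 0 and 1.16 in ATM-WT and 34.5, 88.4, 50.5, 60.95 and 79.9 in ATM-KO. Its order over the ATM-KO libraries was close to that of Cbln1, with A11 lowest in both. 9630013A20Rik is antisense to the protocadherin gene Pcdh17, and was at 0 in all ATM-WT libraries and at 52.1, 67.8, 20.1, 39.1 and 56.6 in ATM-KO. Pcdh17 itself was not silent in ATM-WT and went from 109 to 697 (log2 difference 2.73 ± 0.28 SE, limma adjusted p = 8.14e-06). A12 was the highest ATM-KO library for both, but the lowest was A13 for 9630013A20Rik and A15 for Pcdh17 (499). Vax2os is antisense to Vax2, a homeobox gene of the ventral eye, and held 0, 0, 9.37, 3.54 and 1.53 and then 70.3, 36.6, 90.9, 10.2 and 38.1. Vax2 went from 14.7 ± 12.4 to 68.9 ± 19.3 (limma adjusted p = 0.012). Here the order differed, since A14 was the lowest ATM-KO library for Vax2os and the highest for Vax2 (98.2). Whether the authors' counting used strand is not given in the sources used here, so reads from these pairs cannot be told apart.

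Also among the members were 6 other noncoding RNAs and a gene known only as ENSMUSG00000120972. Gm33302 held 58.6, 46.9, 42.1, 67.5 and 35.95 in ATM-KO and Gm9902 held 30.7, 65.6, 25.9, 19.6 and 35.5. The ATM-KO values of 4933433H22Rik ran from 19.8 to 49.1, of Gm28321 from 21.3 to 43.96 and of Gm39529 from 14.2 to 50. 4930512J16Rik was the one noncoding member whose groups overlapped, with 2.80, 0, 17.7, 0 and 3.54 in ATM-WT and 17.9, 11.8, 71.4, 34.7 and 40.4 in ATM-KO. ENSMUSG00000120972 was at 0 in ATM-WT and at 16.4, 66.5, 22.9, 25.9 and 18.6 in ATM-KO, and fell below the ATM-KO limit without A12.

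Spread among the ATM-KO tumours was higher for the members than for other genes in the same wide range of ATM-KO mean. The coefficient of variation over the 5 ATM-KO libraries had a median of 0.347 over the 39 members (quartiles 0.257 and 0.572) and of 0.226 over 4181 other genes in the same range of ATM-KO mean (quartiles 0.155 and 0.331). It was at least 1 in 5 members (12.8%), Ighg2c, Igkv12-41, Gm45837, Rpl7a-ps11 and Lingo2, and in 0.957% of the other genes. The most even members were Dpys, Defb42, Trhr, Soga3 and 1700017M07Rik at 0.166 to 0.194. This difference in spread is a description. The range ran from 30.1 to 297, with the upper end set by Ighg2c, and levels within it were not matched. The median of the member means was 57.3. Since the rule used the mean of these same libraries, genes carried by 1 library could enter. The dependence of the difference on level, on the rule and on depth was not tested.

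The X chromosome and chromosome 15 held many of the members. On X lay 9 of the 39 (23.1%), against 2.96% of the genes in the table: Rragb, Nxf3, Nap1l2, Samt1b, Gm15097, Gm15128, Tmsb15b1, Rpl7a-ps11 and Gm39529. These are not 9 independent genes. Gm15097 and Gm15128 belong to 1 family of like sequence, and the reads of Rpl7a-ps11 could come from its copy on chromosome 9. On chromosome 15 lay 5 (12.8%, against 3.40% of the table): Trhr, Kcnj4, Mapk8ip2, Rgs22 and Dpys. The chromosomes as a whole also had the highest shares of genes called higher in ATM-KO. On X 229 of 506 tested genes were higher (45.3%) and 74 lower (14.6%), and on chromosome 15 257 of 641 were higher (40.1%) and 120 lower (18.7%). After quantile normalization these shares of higher genes were 52.9% on X and 44.6% on chromosome 15. The share over all genes tested rose as well, from 22.1% to 27.2%. Chromosome 6 had the lowest share, with 9.86% of 781 higher and 40.7% lower, and still held 3 members (Vax2os, 4930512J16Rik and Igkv12-41).

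Neighbouring genes were higher more often than lower. The RefSeq table placed 37 members, which had 72 neighbours that are not members themselves. Of the 51 tested, 22 were higher in ATM-KO (43.1%, beside 22.1% of all genes tested), 7 lower (13.7%, beside 24.3%) and 22 were not called. Many members lie on X and chromosome 15, where 45.3% and 40.1% of all tested genes were higher. The part of this in the share of neighbours was not tested. One of the higher neighbours, Tmem74 beside Trhr, met both limits itself and was left out by name. Others were Samt1c, which holds 96.8% of the 31-base words of Samt1b, and Vax2 and Pcdh17, which overlap members. On chromosome 15 every tested neighbour was higher except Dcstamp (limma adjusted p = 0.06). These included Arsa, a lysosomal sulfatase gene beside Mapk8ip2, which went from 961 to 2957 (limma adjusted p = 7.90e-05), and Nudcd1 beside Trhr, from 1051 to 1879 (limma adjusted p = 6.46e-04). These neighbours were on in both groups, with log2 differences of 1.72 ± 0.23 and 0.87 ± 0.16 (SE). Not every locus moved. Platr14 sits between Hipk3 and Cstf3, which averaged 1843 and 1745, and 710.1 and 783 (limma adjusted p = 0.49 and 0.41). 1700017M07Rik sits beside Gm21388, which was lower (from 20.3 to 0, limma adjusted p = 0.038), and Atp11b, which was not called (limma adjusted p = 0.051). Rragb lies between Mageh1, which was lower (from 57.8 to 27.5, limma adjusted p = 0.035), and the zinc finger gene Klf8, which was higher (from 56.1 to 402, limma adjusted p = 6.39e-05).

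Members held both CpG-rich and CpG-poor promoters. RefSeq promoter windows of GRCm38.p6, from 250 bases before to 50 after the start, were at hand for 23 members (25 windows). By a GC fraction of at least 0.5 and a ratio of observed to expected CpG of at least 0.6, 8 windows were CpG rich (32.0%, exact binomial 95% interval 14.9% to 53.5%), against 33.5% of all 32851 windows and 53.3% of windows of genes in the deposited table. Among coding genes the share was 42.9% for members and 45.1% for all, and among long noncoding RNAs 18.2% and 12%. The bases before the start of 3 members are printed because they show both extremes, with each CpG in capitals. Kcnj4 (chr15:79505242-79505491, minus strand) and Gm2694 (chr8:87472866-87473115, plus strand) each hold 35 CpG in 250 bases, and 1700017M07Rik (chr3:35276132-35276381, minus strand) holds 0.
Kcnj4: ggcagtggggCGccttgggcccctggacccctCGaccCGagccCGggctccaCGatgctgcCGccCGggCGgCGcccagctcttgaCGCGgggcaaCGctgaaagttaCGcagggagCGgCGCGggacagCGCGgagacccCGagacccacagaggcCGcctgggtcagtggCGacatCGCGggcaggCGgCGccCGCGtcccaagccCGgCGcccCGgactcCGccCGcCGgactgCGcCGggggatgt
Gm2694: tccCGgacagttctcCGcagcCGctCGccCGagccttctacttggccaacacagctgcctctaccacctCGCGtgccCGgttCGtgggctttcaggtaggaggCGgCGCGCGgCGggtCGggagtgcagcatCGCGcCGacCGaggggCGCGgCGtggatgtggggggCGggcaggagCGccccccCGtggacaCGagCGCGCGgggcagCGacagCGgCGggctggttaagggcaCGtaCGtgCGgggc
1700017M07Rik: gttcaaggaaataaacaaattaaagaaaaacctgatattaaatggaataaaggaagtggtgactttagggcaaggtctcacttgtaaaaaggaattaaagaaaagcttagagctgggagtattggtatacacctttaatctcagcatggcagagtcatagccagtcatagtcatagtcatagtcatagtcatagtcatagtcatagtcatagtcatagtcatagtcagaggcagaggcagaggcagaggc
The 2 CpG-dense windows are 77.2% and 73.6% G or C, and that of 1700017M07Rik is 38.4% and ends in short repeats. Its gene nevertheless averaged more than the other 2 in ATM-KO.

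**Figure D5:**
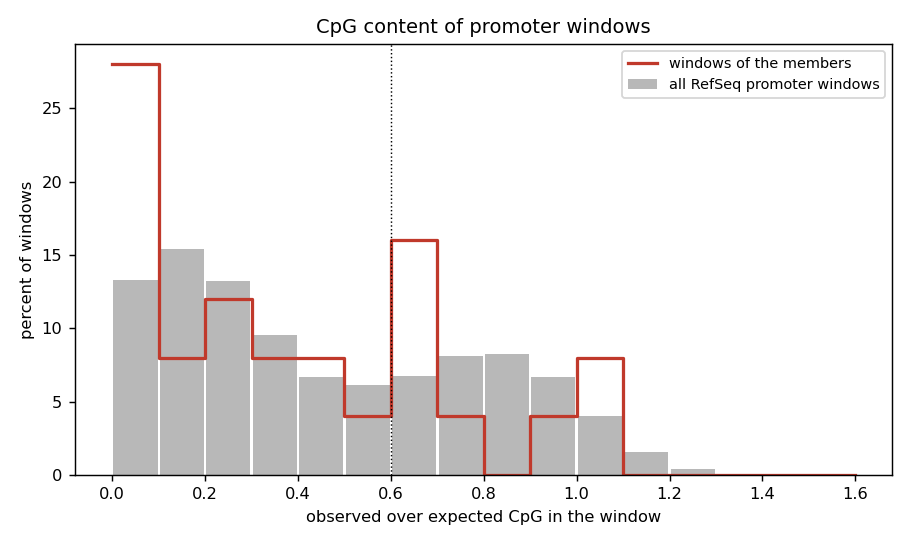
Ratio of observed to expected CpG in promoter windows, in bins of 0.1, for the 25 windows of members (red line) and all 32851 RefSeq windows (grey bars), as percent of windows. The dotted line marks the limit of 0.6. Of the member windows 28.0% fall in the lowest bin, against 13.3% of all.

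Few windows held the motifs searched on both strands. The E-box CACGTG was in 3 windows (12%, against 7.15% of all), those of Rragb, Vgll2 and Gm2694. The left arm of the site of REST, a repressor of neuronal genes outside the nervous system, was searched as TCAGCACC and was in 2 windows (8.0%, against 1.65%), those of Lingo2 and Rragb. Its right arm GGACAGCG was in 1 (4.0%, against 1.26%), that of Kcnj4. An E2F6 site GGCGGGAA, a cyclic AMP response element TGACGTCA and the HNF1 site were in 0 windows, against 2.19%, 1.79% and 0.00913% of all. With 25 windows, the exact 95% intervals are wide, from 2.55% to 31.2% for the E-box and from 0.984% to 26.0% for the left arm of REST. The window of Rragb held the most matches, with 3 E-boxes, and is shown for the 250 bases before its start (chrX:153139708-153139957, plus strand), with whole motifs in capitals.
Rragb: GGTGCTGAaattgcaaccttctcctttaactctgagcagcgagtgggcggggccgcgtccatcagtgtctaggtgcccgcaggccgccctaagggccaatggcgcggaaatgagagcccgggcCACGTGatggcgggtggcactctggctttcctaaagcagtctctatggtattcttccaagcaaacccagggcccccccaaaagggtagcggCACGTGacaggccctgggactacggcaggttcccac
The capitals are the left arm of REST, on the reverse strand at the far end, and 2 E-boxes. The third E-box spans the start and is not whole in these bases.

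Other genes of the same kinds went both ways. The lists leave out the members. Of 30 tested genes of neurons and neuroendocrine cells 9 were higher and 13 lower in ATM-KO, with a median log2 difference of -0.215, while quantile normalization turned the split to 11 higher and 6 lower with a median of 0.33. Over all genes tested the median was 0.005, and 0.15 after quantile normalization, with 4477 genes higher and 3341 lower, against 3649 and 4017. Among the higher were Uchl1, a neuronal ubiquitin hydrolase gene (235 ± 126 to 5397 ± 473, limma adjusted p = 1.47e-07), and Celf4, an RNA-binding protein gene (233 ± 51.4 to 880.3 ± 127, limma adjusted p = 4.44e-06). Among the lower were Grin1, the NMDA receptor core subunit gene (102 ± 55.9 to 0.515 ± 0.809, limma adjusted p = 1.35e-05), and the adhesion gene Cntn1 (42.7 ± 27.5 to 0.585 ± 0.537, limma adjusted p = 1.28e-04). Snap25 was among the lower genes too. The synaptic members Cbln1 and Pclo are not set against these, because the rule fixed their direction.

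Of 17 tested germ cell genes 2 were higher and 2 lower, with a median of 0.06, and 6 were higher and 2 lower after quantile normalization. Without A14 1 was higher and without A3 there were 4. Smc1b, a meiotic cohesin gene, was higher (14.1 ± 5.57 to 51.9 ± 9.15, limma adjusted p = 0.0013), and its meiotic partner Stag3 lower (60.1 ± 30.2 to 4.64 ± 6.41, limma adjusted p = 0.0022). Of 16 tested genes with symbols of reproductive families, mostly X-linked (Rhox, Samt, Xlr, Slxl, Mage, Ssx), 6 were higher and 2 lower, with a median of 0.56. The 2 that were lower, Mageh1 and Magef1, lost their calls under several alternatives. The higher ones included Xlr (91.3 ± 54.3 to 1561 ± 216, limma adjusted p = 3.34e-06) and Samt1c. Samt1c holds 96.8% of the 31-base words of the member Samt1b. Rhox10 was also among the higher ones. It met both limits and was left out of the members by name, so its direction was fixed by the rule. Ssx2ip and Magef1 matched by symbol alone. Of 25 tested endoderm and liver genes 4 were higher and 13 lower, with a median of -0.67. Afp, alpha-fetoprotein of fetal liver and yolk sac, was higher (17.6 ± 10.4 to 904 ± 126, limma adjusted p = 2.22e-07), while the transport protein gene Rbp4 was lower (1070 ± 430.3 to 45.2 ± 27.3, limma adjusted p = 1.18e-06). Of 46 tested homeobox, paired and T-box genes outside the Hox clusters 12 were higher and 14 lower, with a median of -0.10, and 14 were higher and 12 lower after quantile normalization, with a median of 0.21. Six3, of forebrain and eye, was higher (22.8 ± 19.6 to 558 ± 61.4, limma adjusted p = 4.74e-06), and Pax3, of neural crest and muscle, lower (492 ± 154 to 6.53 ± 2.18, limma adjusted p = 1.10e-07).

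The tissue named by the labels was itself different between the groups. Of 16 urothelium markers 15 were tested and all 15 were lower in ATM-KO. Their sum was 75890 to 228800 in ATM-WT and 2703 to 4471 in ATM-KO, and Upk3a and Grhl3 were at 0 in all ATM-KO libraries. The members thus went on in tumours that had little urothelial RNA, and the part of this change in their level was not tested.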

How the data were processed

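RNA of 10 tumours was sequenced, and the authors deposited a single table of normalized counts with a gene symbol per row and a library per column. These deposited values are a signal, neither whole reads nor logs. STAR, Salmon and DESeq2 are listed in the submitters' processing notes. Not given in the sources used here are their versions, their roles, the build and the gene models. Column names carry library numbers that the labels lack, so columns were assigned to genotypes only.

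Whole reads could not be recovered from the values, so no count model was run. Genes with a mean of at least 10 were tested with limma 3.58.1 in R 4.3.3 on log2(value + 1), a scale that understates changes of low genes (eBayes with trend, Benjamini-Hochberg adjustment, threshold 0.05). The fit covered the whole table and was tested on simulated data. As nothing in the labels shows separate animals or clones, p-values reflect the variation among these 10 samples alone. Sequence sharing came from GENCODE M21 transcripts, and gene types, chromosomes, neighbours and promoters from RefSeq tables of GRCm38.p6, matched by symbol. Python 3.11.15, numpy 2.4.6, pandas 2.3.3 and matplotlib 3.10.9 were used.

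The members and lists were chosen with earlier results of these data known. Named genes were all members in order of ATM-KO mean within class, the 3 genes nearest each limit, up to 3 genes per list and direction with the smallest adjusted p, and neighbours. Values of 1 member and a few other genes are not reported here. Family relatives were added after their values were seen. Leaving out A2 and A4 together and summing copies were also chosen after seeing the data. Other alternatives covered both limits, group medians, the pseudocount, the filter, the scaling and leaving out each library.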

Additional observations from a re-analysis of the deposited data

Results flagged for a closer look

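In 19 groups of 5 libraries the highest value of a member stood apart from the other 4 by more than Dixon's 95% limit of 0.71 of the range. Chance flags about 1 in 20 groups of normal values. In ATM-KO this held for 6 of 38 members. A11 stood apart for Ighg2c at 1422 and Igkv12-41 at 164, A12 for ENSMUSG00000120972 at 66.5, A13 for Saa2 at 119, A14 for Lingo2 at 108 and A15 for Trhr at 84.7 normalized counts.

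In ATM-WT it held for 13 of 32 members with any signal there. Most of these values are a few reads beside zeros, where the limit is easily passed. A1 stood apart for Gm15128 at 11.4, Gm2694 at 10.2, Platr14 at 7.36 and Soga3 at 1.63. A3 stood apart for 4930512J16Rik at 17.7, Nap1l2 at 15.9, Dpys at 8.86 and Trhr at 3.01. A4 stood apart for Defb42 at 2.59, and A5 for Pclo at 21.7, Rgs22 at 8.65, Gm15097 at 2.95 and 1700017M07Rik at 0.981.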

How the results depend on the processing

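The number of genes taken by the rule moved with its limits. From 39 it went to 20 with an ATM-WT mean of at most 2 and 77 with at most 10, to 73 with an ATM-KO mean of at least 20 and 23 with at least 50, to 67 after quantile normalization (39 shared) and to 66 by group medians (30 shared). Leaving out each library in turn gave 38 to 51 genes, the highest without A3.

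Counts in the small lists moved too. With no filter, 4 germ cell genes were lower and the X-linked families had 10 higher and 1 lower. With a mean of at least 50, germ cell genes had 0 higher and 1 lower, 8 endoderm, 6 neuron and 1 of the X-linked genes were lower. Quantile normalization gave 6 germ cell genes higher, 6 neuron genes lower and 0 X-linked genes lower. Without A2 and A4 together, 4 germ cell genes were higher and 4 lower, and 1 X-linked gene was lower. Leaving out each library gave 1 to 4 germ cell genes higher and 0 to 2 X-linked genes lower, with 0 without A3, A4, A5, A12 or A14. Without A14, which alone carried most of Tex101, 1 germ cell gene was higher, and without A3 there were 4. The cause of these moves was not tested, other than that stricter filters test fewer genes.

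Of 271 alternatives for counts and shares 240 stayed within range, each count being taken in 1 direction. The balance of higher and lower calls turned under quantile normalization for the neuron and homeobox lists and for all genes. For all genes it turned under upper-quartile scaling too (3964 higher and 3799 lower). With a mean of at least 50 the balance also turned for the neuron list (8 higher and 6 lower) and, narrowly, for all genes. The homeobox list was then even, at 10 higher and 10 lower. Of 1021 alternatives for 58 named genes 45 lost the call, in Clstn2, Ctsb, Gm21388, Kdelr3, Magef1 and Mageh1. By the rough depths, silence is limited most in A2, while the depth of A4 is uncertain. No paired analysis was possible because the library numbers in the columns match no replicate number in the labels.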
